A study of Saccharomyces cerevisiae with 30 samples.

Results

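The windows around the 16 centromeres of budding yeast are described here, in DNA replication stalled by hydroxyurea (HU) and then released. They were chosen by position alone, as the deposited 2000 bp windows whose midpoint lay within 10 kb of a centromere and that held a read in at least 1 library. This gave 1592 of 60303 windows, 100 for each centromere and 92 for that of chromosome VI, where 8 windows had no read in any library. The signal is from TrAEL-seq, which tags 3′ DNA ends and in growing cells mostly marks the leading strand end at replication forks. It is given in RPM, reads scaled to the mapped reads of the library, summed over both strands in windows that start every 200 bp.

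Centromeres are the chromosome sites on which the kinetochore is built, the protein assembly that binds spindle microtubules. In budding yeast each is a short DNA element wrapped around a single nucleosome that holds the histone H3 variant Cse4, and kinetochore proteins stay bound to it for nearly the whole cell cycle. The regions around them are known to replicate early in S phase.

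Haploid budding yeast cells of 4 strains were held in G1 with alpha factor and released into rich medium (YPD) with 200 mM HU, which depletes nucleotides and stalls forks. The strains were a triple mutant (*pol1-1A mrc1-AQ cdc45-2A*), a double mutant (*mrc1-AQ cdc45-2A*), *pol1-1A* alone and the wild type (WT), each sampled in the HU block and 20 and 40 minutes after its removal. Mrc1 and Cdc45 are replisome proteins and Pol1 is the catalytic subunit of DNA polymerase alpha. The study used the 3 alleles to remove the binding of each to the checkpoint kinase Rad53. In *mrc1-AQ* all consensus sites of Mrc1 for phosphorylation by the kinases Mec1 and Tel1 are changed to alanine. Each of these 12 groups had 2 replicates by the labels, and p-values measure the spread between them. The 13th group was asynchronously growing WT cells with no HU, 2 preparations that were each split over 3 of the 6 library pools as a spike-in. A pool held 1 library of every strain at 1 time point and replicate. The 24 libraries of strains and times held 2974768 to 10460920 mapped reads and the 6 asynchronous libraries held 317539 to 1333846. All values are relative to the other reads of the same library, so a share that rises at centromeres cannot be told apart from one that falls elsewhere.

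None of the 16 centromere positions lay inside an annotated gene of the R64 assembly, and the gap between their flanking genes ranged from 630 to 2541 bp. The centromere of chromosome I lies between *TFC3*, a subunit of the RNA polymerase III factor TFIIIC, and *NUP60*, a nuclear pore protein gene. That of chromosome XI lies between *MET14*, a gene of sulfate assimilation, and *VPS1*, which encodes a dynamin-like GTPase. On chromosome XIII the neighbours are *YPT7*, a Rab GTPase gene of vacuole fusion, and *CDC5*, the polo kinase gene. On chromosome XIV they are *DOM34*, a ribosome rescue factor gene, and *CIT1*, the mitochondrial citrate synthase gene.

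How much of the replication signal lay at centromeres was asked first. In the WT HU block, 10.2 and 11.1% of the reads inside windows fell within 10 kb of a centromere, against 2.83 and 3.96% in the 2 preparations of asynchronous cells. These regions make up 2.65% of the recovered 200 bp bins, so the mean share was 4.02 times an even spread in the HU block and 1.28 times in asynchronous cells. Chromosome ends (within 30 kb) held 0.387 and 0.772 times an even share in the same groups. The authors filtered subtelomeric reads and the emptied bins count in the even share, which lowers both values by an amount not measured here. Of the 160 non-overlapping centromere windows tested, 102 were higher in the HU block than in asynchronous cells and 1 was lower, where 16.5% of all 5935 windows tested were higher and 53.6% lower (limma-trend on log2(RPM + 1), Benjamini-Hochberg adjusted p under 0.05). The median log2 change was 1.46 over the centromere windows and -1.36 over all windows. The counts moved with the scaling, with 93 higher and 20 lower when libraries were scaled to reads inside windows and 55 higher and 24 lower after quantile normalization. The median of all windows was -1.60 and -0.20 under these scalings, -0.52 with edgeR (113 higher, 0 lower) and -0.44 with DESeq2 (116 higher, 0 lower). The 10 windows of a centromere share forks and are not independent of each other.

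The largest rise was in the window 260001 to 262000 of chromosome XIII, 7.1 kb left of the centromere over *TRM12* and *GLO1*. It held 1604 and 1819 RPM in the WT HU block, against 118 and 153 RPM in asynchronous cells (log2 change 3.66 ± 0.21 SE, limma adjusted p = 2.35e-11). The only fall was in the window 148001 to 150000 of chromosome VI, which holds the centromere, *DEG1* and *LOC1*, at 141 and 36.9 RPM in the HU block and 192 and 241 RPM in asynchronous cells (log2 change -1.56 ± 0.56, limma adjusted p = 0.0212). The HU block libraries of that window lie far apart, and both are below both asynchronous values.

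The 16 centromeres differed widely in the HU block. The 2 kb window centred on each centromere held from 88.8 RPM on chromosome VI to 1331 RPM on chromosome IX (means of 2 WT libraries, median over centromeres 377), where the mean of all windows was 142 RPM. At chromosome IX the WT libraries held 1272 and 1389.8 RPM in the HU block, 386 and 349.9 RPM at 20 minutes and 100.2 and 109 RPM at 40 minutes. Chromosome I held 1131 and 1439.9 RPM, then 839.7 and 596 RPM, then 118 and 105 RPM at the same times. Both were thus highest in the block, with no overlap between times.

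At chromosome XI the window held 308 and 277 RPM in the WT HU block, 1036 and 1133 RPM at 20 minutes and 321 and 263 RPM at 40 minutes. The libraries at 20 minutes stand far above both other times. At chromosome VI it held 136 and 41.2 RPM, then 292 and 307 RPM, then 593 and 591 RPM, so that the last time was the highest. In the WT the highest mean fell in the HU block at 4 centromeres (I, II, IX and XVI), at 20 minutes at 10 (III, V, VII, VIII, X, XI, XII, XIII, XIV and XV) and at 40 minutes at 2 (IV and VI). Both libraries of the highest time exceeded all libraries of the other times, except at XIII and IV.

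**Figure D1:**
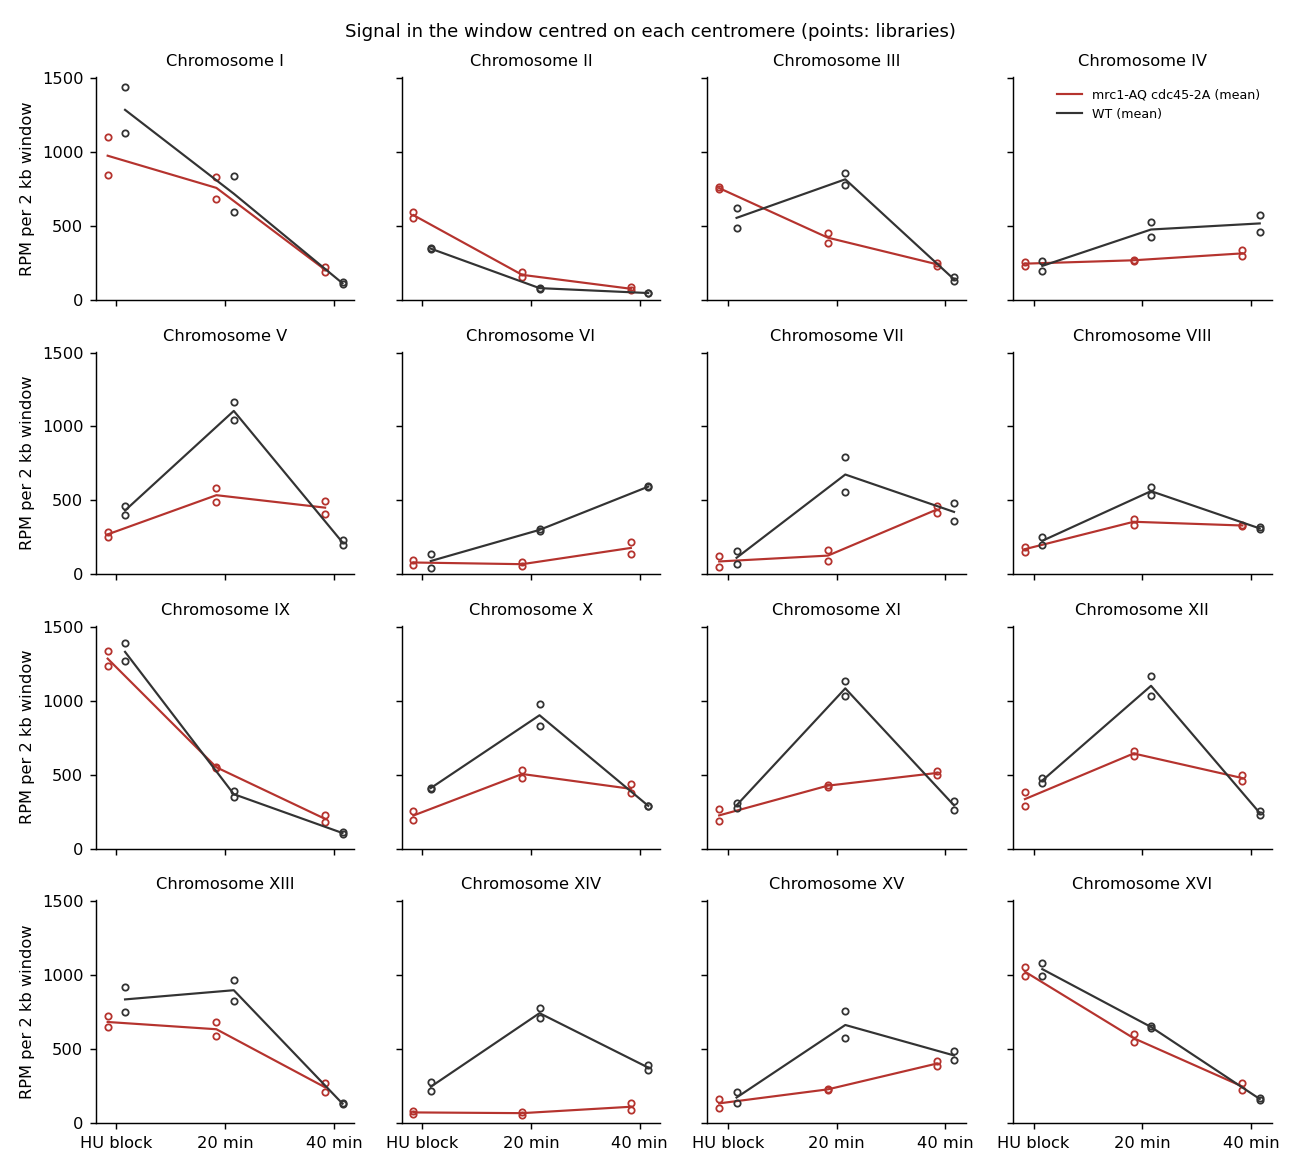
Signal (y axis, RPM) in the 2 kb window centred on each of the 16 centromeres in the HU block and 20 and 40 minutes after release (x axis), for the *mrc1-AQ cdc45-2A* double mutant (red) and the WT (black); points are the 2 libraries of a group and lines join their means. Most WT curves peak at 20 minutes, while the double mutant stays low at chromosome XIV, between 66.1 and 109 RPM.

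In the release of the WT, 11 of the 16 centred windows rose at 20 minutes relative to the HU block and 4 fell (limma on windows counted from the centromere, where 16.7% of all windows were higher and 11.1% lower). The largest changes were at chromosome VII, with 559 and 789.8 RPM at 20 minutes against 154 and 67.1 RPM in the block (log2 change 2.70 ± 0.53, limma adjusted p = 0.000391), and at chromosome II, with 75.1 and 82.1 RPM against 344 and 348 RPM (log2 change -2.12 ± 0.29, limma adjusted p = 6.29e-06). From 20 to 40 minutes 0 rose and 12 fell (background 30.4% higher and 14.7% lower). Without adjustment the same 12 passed, where 52% of all windows did. The steepest was at chromosome XIII, with 125 and 135 RPM at 40 minutes and 968 and 828 RPM at 20 minutes (log2 change -2.77 ± 0.16, limma adjusted p = 2.71e-10). In the same set of windows the HU block was higher than asynchronous cells at 9 centromeres and lower at 1, chromosome VI (background 16.6% and 53.4%).

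Over the 160 windows up to 10 kb away, 78 were higher and 56 lower at 20 minutes than in the block (background 17% and 11.1%), and 4 were higher and 121 lower at 40 than at 20 minutes (background 30.9% and 14.6%, with quantile normalization 18 and 119). The median log2 changes of the centromere windows were 0.68 and -1.54, against -0.03 and 0.70 for all windows. The largest rise at 20 minutes was in the window 228001 to 230000 of chromosome II over *UTP20*, a ribosome biogenesis gene, with 945 and 1150.1 RPM against 176 and 121 RPM in the block. On the same chromosome the window 238001 to 240000 over *NTH2*, a trehalase gene beside the centromere, fell most, to 196 and 150.97 RPM against 989 and 987 RPM. Around this centromere signal was thus higher 9.2 kb to the left and lower 0.8 kb to the right. From 20 to 40 minutes the largest fall was also on chromosome II (242001 to 244000, over *RER2* and *COQ1*), with 123 and 99.3 RPM against 1165 and 845 RPM. The largest rise was on chromosome XI (430001 to 432000, holding *CAP1*, *SFT1*, *SNR87* and *RPL14A*), with 469.7 and 512 RPM against 146 and 101 RPM.

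The time of highest signal varied with the distance to the nearest origin as placed here. An origin was placed midway between adjacent maxima of the smoothed mean WT HU block profile that were separated by 4 to 9 kb, which gave 145 in the genome. With both strands summed, forks leaving 1 origin are not told from converging forks of neighbouring origins. Chromosomes I and III had 2 such positions within 10 kb of the centromere and XVI had 3. Some of these positions may therefore not be origins, and the distances carry that limit. Of the 16 centromeres 12 had one within 10 kb and 5 within 3 kb, with a median distance of 6.1 kb. The nearest was at 0.3 kb on chromosome III and the most distant at 19.3 kb on chromosome VI, the centromere with the lowest signal in the block. The 4 centromeres whose signal was highest in the block had their origin at 0.6 to 2.5 kb. Chromosome III, with the nearest origin of all, was not among them, and its WT libraries were highest at 20 minutes (log2 ratio over the HU block 0.56). Across the 16 centromeres the WT log2 ratio of 20 minutes over the HU block rose with that distance (Spearman rho = 0.81, Pearson r = 0.71), and that of 40 over 20 minutes likewise (rho = 0.64, r = 0.76). These are descriptions over 16 sites of the same libraries. The origins were located in the WT HU block profile, which also enters the first ratio and the time of highest signal. Neither is therefore independent of how the origins were placed.

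At a finer scale, a narrow spike marked the centromere itself. In the mean profile of 200 bp bins of asynchronous cells, the bins at the centromere and next to it on the right held 41 and 39.6 RPM, while bins 0.6 to 1 kb away on either side held 15.9 to 19 RPM. The same pair of bins held 59 and 53.5 RPM in the WT HU block, 94.9 and 100.1 RPM at 20 minutes and 43.1 and 46.3 RPM at 40 minutes. The spike is thus only a few bins wide, in a profile that otherwise varies over several kilobases.

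**Figure D2:**
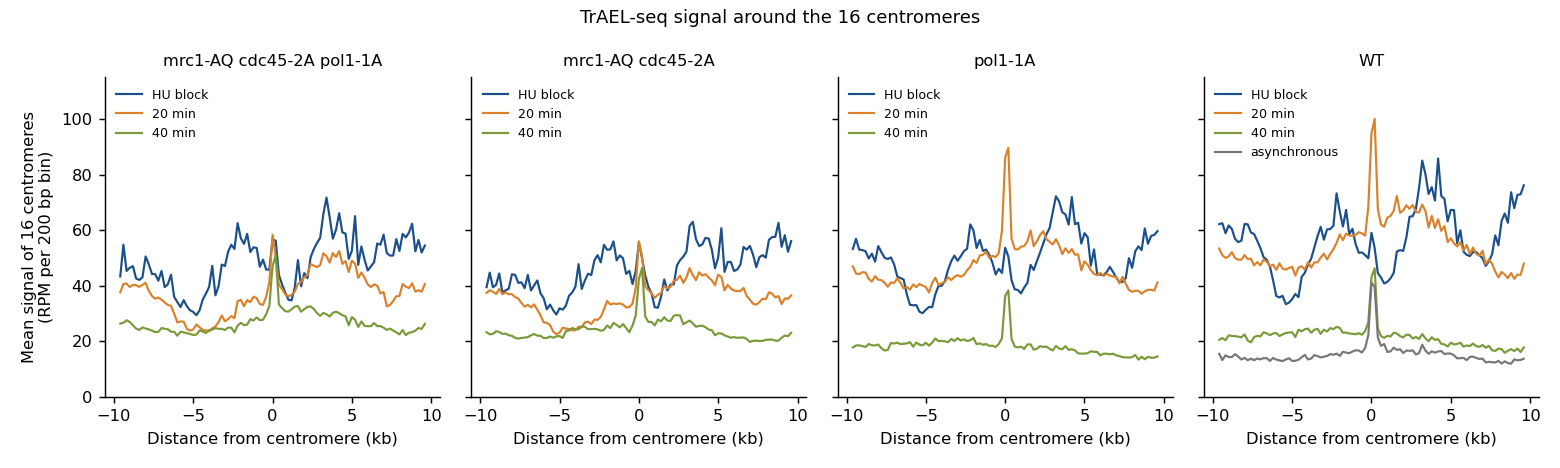
Mean signal of the 16 centromeres (y axis, RPM per 200 bp bin, mean of the libraries of a group) by distance from the centromere (x axis, kb), in 1 panel per strain with 1 line per time and, for the WT, asynchronous cells. A narrow peak stands near distance 0 in asynchronous cells and after release, tallest in the WT at 20 minutes (100.1 RPM, bin next to 0 on the right). In the bin at 0 at that time the WT held 94.9 RPM and the double mutant 56 RPM. The bin 600 bp to the left held 58.9 RPM in the WT and 32.3 RPM in the double mutant. In the WT HU block the bin at 0 held 59 RPM, below 85.8 RPM at 4200 bp to the right.

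To measure it, the mean of the bins within 300 bp of the centromere was divided by the mean of the bins 1 to 3 kb away on both sides. In asynchronous cells, reads of all 6 libraries summed, this ratio was 1.94 to 2.57 at 15 of the 16 centromeres. At 58554 positions of the genome with at least 10 reads per flanking bin the median of the same ratio was 1.01, and 0.21 to 0.722% of positions were as high as those 15 centromeres. The highest bin within 500 bp held 401 reads at chromosome XI (440201 to 440400), 4.64 times the mean of its flanks, and 353 reads at chromosome XII. In each of the 15 it lay within 200 bp of the centromere.

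Chromosome II was the exception. Its ratio was 0.727, a value that 93.4% of genome positions reached or exceeded, and its 2 preparations of asynchronous cells gave 0.879 and 0.606. The nearest origin to this centromere lay 0.6 kb away. At the centromere of chromosome III an origin was nearer still, at 0.3 kb, and the asynchronous ratio there was 2.02 and 2.23 in the 2 preparations.

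In the HU block this ratio was lower. The median ratio over the 16 centromeres was 0.866 and 0.761 in the WT HU block libraries, against 2.05 and 2.19 in asynchronous cells (difference of the means -1.31, exact two-sided permutation test of 2 against 2, p = 0.333, the smallest this design allows). Only 4 centromeres exceeded 1 in both HU block libraries (I, IV, IX and XVI), against 15 in both asynchronous preparations. At chromosome XVI it was 2.47 and 2.47 in the block, against 1.99 and 2.45 in asynchronous cells. At chromosome III it was 0.468 and 0.582 in the block. After release the WT median was 1.39 and 1.51 at 20 minutes and 1.72 and 1.70 at 40 minutes. Both release times lie above the block and below asynchronous cells, and 14 and 15 centromeres exceeded 1 in both libraries. The flanks differed too, since the bins 1 kb to the left and right of the centromere held 55 and 41.4 RPM in the WT HU block and 16.7 and 16.1 RPM in asynchronous cells, and their part in the ratio was not tested.

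**Figure D3:**
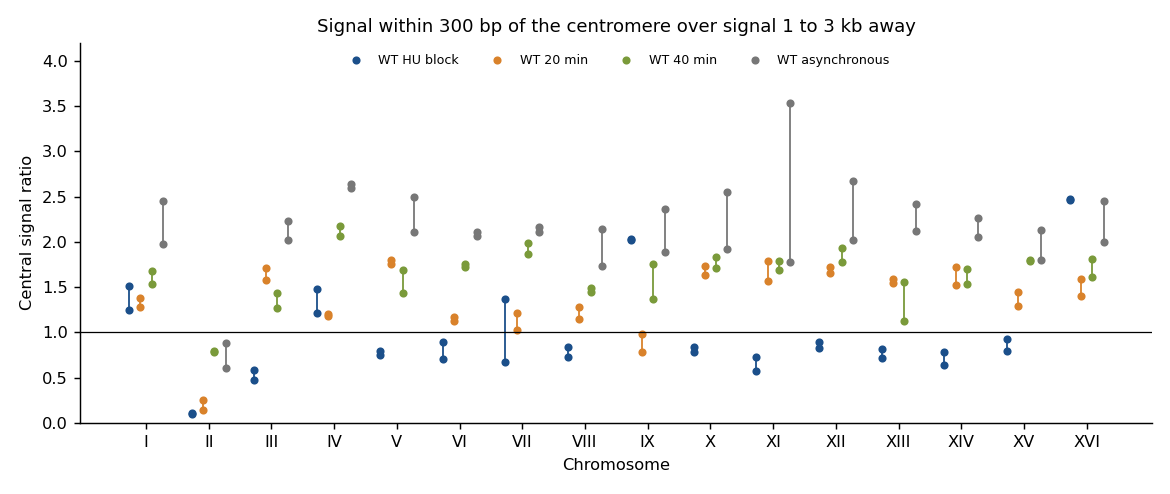
Central signal ratio (y axis, mean of bins within 300 bp of the centromere over the mean of bins 1 to 3 kb away) of each centromere (x axis) in the WT HU block, at 20 and 40 minutes and in asynchronous cells; points are the 2 replicates, asynchronous libraries averaged per preparation, and the line at 1 means no difference from the flanks. Asynchronous points lie above 1 everywhere but at chromosome II, at 0.879 and 0.606.

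The double mutant was compared with the WT at each time. Its share of reads within 10 kb of centromeres was 7.84 and 8.4% in the HU block, against 10.2 and 11.1% in the WT. At 20 minutes it was 5.87 and 6.09% in the double mutant and 9.52 and 9.56% in the WT, and at 40 minutes 3.88 and 4.12% in the double mutant and 3.70 and 3.67% in the WT. The ratios of the means were 0.761, 0.627 and 1.08. The groups did not overlap at any time, and with 2 libraries against 2 the exact two-sided permutation p was 0.333 each time, the smallest it can be.

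In the fit over 585 regions of 20 kb, 10 of the 16 centromere regions were lower in the double mutant in the HU block and 0 were higher (all regions 12.1% lower and 27.7% higher, limma). With edgeR 2 and with DESeq2 5 were lower and 0 higher. In limma 13 passed without adjustment, as did 46.5% of all regions. At 20 minutes 14 were lower and 0 higher (background 20.5% and 35.2%), with 11 lower and 0 higher in both edgeR and DESeq2, and 14 without adjustment in limma, where 60% of all regions passed. The exceptions were chromosomes I and XVI. At 40 minutes 8 were higher and 3 lower (background 25.5% and 14.5%), and with DESeq2 1 was higher and 2 lower, with a median log2 change of -0.04. The median log2 change of the 16 regions was -0.35 in the block, -0.64 at 20 minutes and 0.19 at 40 minutes, against 0.14, 0.20 and 0.16 over all regions.

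**Figure D4:**
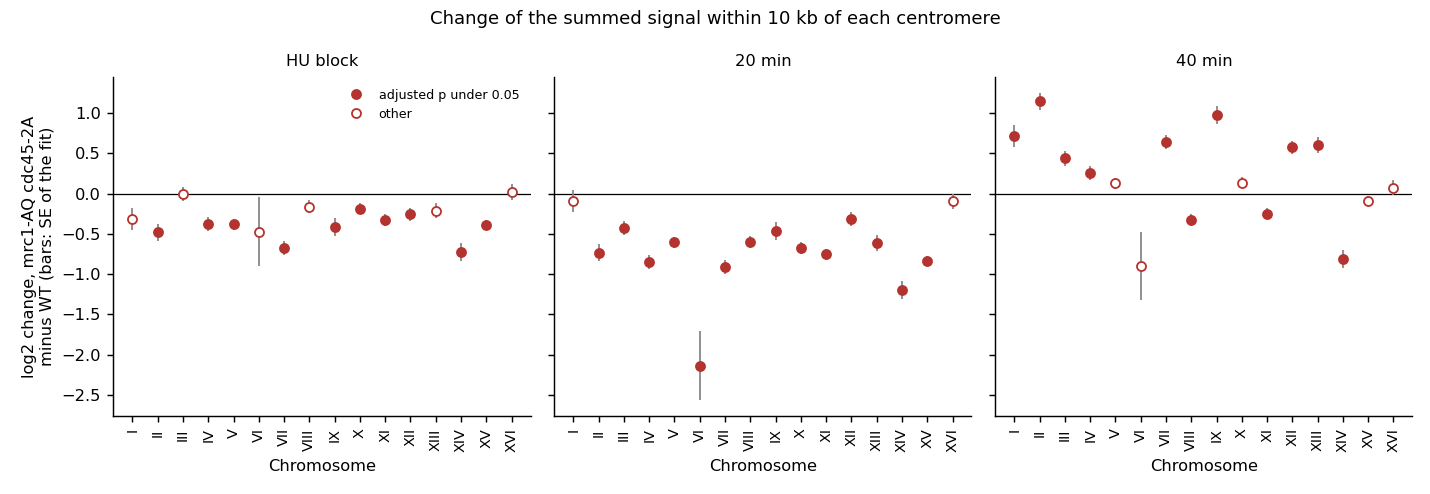
Log2 change of the summed signal within 10 kb of each centromere (x axis), *mrc1-AQ cdc45-2A* minus WT (y axis), in the HU block and at 20 and 40 minutes, with the standard error of the limma fit as bars and filled points where the adjusted p was under 0.05. At 20 minutes every point lies below 0, most so at chromosome VI (-2.14) and chromosome XIV (-1.20), while at 40 minutes 8 regions are called higher (1 with DESeq2).

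At chromosome XV, for example, the region held 2826 and 2811 RPM in the double mutant at 20 minutes, against 5025 and 5056 RPM in the WT (log2 change -0.84 ± 0.06, limma adjusted p = 4.09e-09). At chromosome II it held 2480.1 and 2943 RPM in the double mutant at 40 minutes, against 1371 and 1081 RPM in the WT (log2 change 1.149 ± 0.11, limma adjusted p = 4.90e-07). The double mutant was thus lower on XV at 20 minutes and higher on II at 40 minutes, with no overlap of libraries. Chromosome XVI was called at none of the 3 times (log2 changes 0.02, -0.10 and 0.07, each ± 0.09).

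Among the 160 smaller windows, 13 were higher and 48 lower in the double mutant in the HU block (background 16.7% and 9.28%), 16 higher and 82 lower at 20 minutes (28% and 13.8%), and 61 higher and 16 lower at 40 minutes (20% and 12.4%). Their median log2 changes were -0.34, -0.52 and 0.41, against -0.24, 0.12 and 0.25 over all windows. The HU block count depended on the test, since edgeR called 3 higher and 2 lower, DESeq2 2 higher and 4 lower, and quantile normalization 1 higher and 61 lower. It was also 31 in all without WT replicate 2 and 39 without double mutant replicate 2. At 20 minutes edgeR and DESeq2 called 80 and 75 lower and 0 higher. At 40 minutes DESeq2 called 5 higher and 17 lower, edgeR 31 higher and 10 lower, and quantile normalization 67 higher and 30 lower. Leaving out double mutant replicate 2, WT replicate 1 or WT replicate 2 left 36, 46 and 45 calls at that time.

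Of the windows centred on the centromeres, 1 was higher and 4 were lower in the double mutant in the HU block (background 16.2% and 9.14%), 2 were higher and 12 lower at 20 minutes (27.8% and 13.9%), and 9 were higher and 3 lower at 40 minutes (19.4% and 12.3%). At 20 minutes those higher were chromosomes II and IX, both of which were highest in the block and lower afterwards in both strains. At chromosome IX the double mutant held 553 and 547 RPM at 20 minutes, against 386 and 349.9 RPM in the WT. At chromosome V it held 489 and 580 RPM, against 1164 and 1045 RPM (log2 change -1.05 ± 0.16, limma adjusted p = 2.27e-05), and at 40 minutes 407 and 493 RPM, against 230 and 199.4 RPM (log2 change 1.06 ± 0.16, limma adjusted p = 0.000179). Chromosome V is thus one where the order of the strains turned between the times.

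The change over time itself was tested between the strains. From the block to 20 minutes it differed at 4 of the 16 centromeres (III, IV, XI and XIV, each less in the double mutant, background 15.8% of all windows), and from 20 to 40 minutes at 12 (background 27.7%), each more positive in the double mutant. At chromosome XI the log2 change from 20 to 40 minutes was 0.26 in the double mutant and -1.89 in the WT (difference 2.16 ± 0.26, limma adjusted p = 2.97e-06). The highest mean of the centred window came at 40 minutes at 6 centromeres in the double mutant (IV, VI, VII, XI, XIV and XV) and at 2 in the WT. In the double mutant the log2 ratio of 40 over 20 minutes also rose with the distance to the nearest origin (rho = 0.86, r = 0.85 over the 16 sites, with no test).

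Around the 12 origins within 10 kb of a centromere, the distance between the highest window on each side of the origin was read in the HU block, with no test, since the origins were chosen on the WT profile and the measure was added after the data had been seen. The median was 4.7 and 4.6 kb in the double mutant and 5.2 and 5.8 kb in the WT. The double mutant was narrower, with no overlap of libraries, at 9 of the 12 and wider at 3 (I, VIII and XVI). The 9 include chromosome XIV, at 0.8 and 1.4 kb in the double mutant and 5 and 5.8 kb in the WT. The mean double mutant profile had no separate maximum left of that origin, so its values there do not measure a distance between peaks. These values also enter the double mutant medians. Chromosomes I, III and XVI have more than 1 position placed as an origin within 10 kb of the centromere. If any of them lies between converging forks, its spacing does not measure how far forks had moved from an origin.

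Among the centred windows chromosome XIV stood furthest apart. In the sums within 10 kb at 20 minutes the log2 change was larger at chromosome VI (-2.14) than at XIV (-1.20). The centred window of XIV (627801 to 629800) held 81.8 and 60.2 RPM in the double mutant in the HU block, against 276 and 213 RPM in the WT. At 20 minutes it held 77.1 and 55.1 RPM, against 778 and 708 RPM, and at 40 minutes 135 and 84.1 RPM, against 356.4 and 392 RPM. The log2 changes were -1.78 ± 0.34, -3.49 ± 0.34 and -1.80 ± 0.34 (limma adjusted p = 0.000366, 1.33e-07 and 0.00109). The double mutant was thus below the WT in every library at every time, and its 6 libraries lay between 55.1 and 135 RPM, while the WT rose at 20 minutes and fell at 40 minutes.

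The nearest origin to this centromere lay 7.1 kb to its right. In the HU block the highest windows beside that origin were 5 and 5.8 kb apart in the WT and 5.6 and 6.2 kb in *pol1-1A*. They were 0.8 and 1.4 kb apart in the double mutant and 0.8 kb in both libraries of the triple mutant. In every library of these 2 mutants the left window was the one nearest the origin, 0.1 kb away. The mean double mutant profile rose from 443 RPM at 5 kb to 623 RPM at 8 kb, with no separate maximum left of the origin. Their values thus do not measure a distance between 2 peaks. The window 1.8 kb left of the centromere (626001 to 628000, over *RLP7* and *DOM34*) had the largest fall at 20 minutes, with 69 and 46.6 RPM in the double mutant against 647 and 659 RPM in the WT (log2 change -3.50 ± 0.46, limma adjusted p = 4.42e-06), and also the largest at 40 minutes, with 89.9 and 48.6 RPM against 458 and 397 RPM. In the HU block the largest fall was in the window 630001 to 632000 over *CIT1* and *SUF10*, with 71.8 and 41.9 RPM against 567 and 678 RPM. The largest rise at 20 minutes was on the far side of the same origin, in the window 636001 to 638000 over *SWM2* and *VPS27*, with 371 and 346 RPM in the double mutant against 141 and 138 RPM in the WT. In the mean profile at 20 minutes the double mutant was below the WT from 10 kb left of the centromere to 3 kb right of it, with 172 RPM against 377 RPM at 3 kb, and above it nearer the origin, with 446 RPM against 211 RPM at 5 kb and 315 RPM against 121 RPM at 8 kb. In the HU block it was above the WT at 6 to 8 kb, with 492 RPM against 144 RPM at 7 kb, and below it at 9 kb, with 506 RPM against 811 RPM. At both times the double mutant was thus higher than the WT close to this origin and lower at the centromere.

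**Figure D5:**
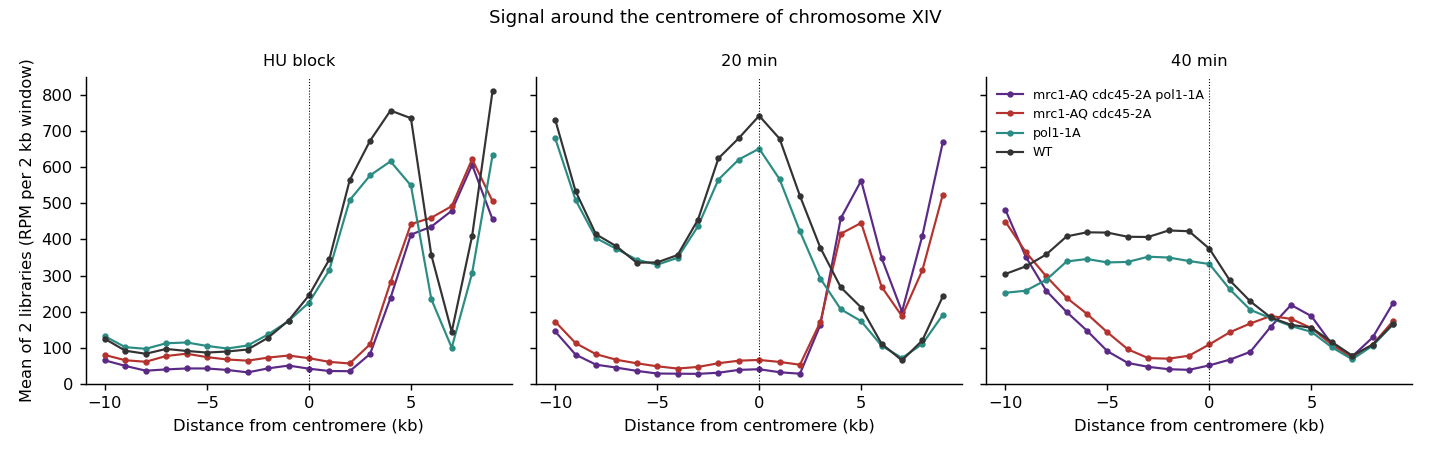
Signal (y axis, RPM per 2 kb window, mean of 2 libraries) by distance from the centromere of chromosome XIV (x axis, kb) in the 4 strains, in the HU block and at 20 and 40 minutes. At distance 0 the triple and double mutants stay between 40.4 and 109 RPM at all 3 times, while *pol1-1A* and the WT reach 652 and 743 RPM at 20 minutes.

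The remaining largest rises were on chromosome I. In the HU block the window 160001 to 162000, over *YAR009C*, an open reading frame of a retrotransposon, held 39.2 and 50.7 RPM in the double mutant against 6.72 and 11.1 RPM in the WT, a low level in both. Retrotransposons (Ty elements) were filtered by the authors, so these reads may come only from the part of the window outside the filter. At 40 minutes the window 152001 to 154000 over *NUP60*, next to the centromere, held 304 and 356.4 RPM in the double mutant against 126 and 95.9 RPM in the WT (log2 change 1.57 ± 0.20, limma adjusted p = 4.31e-05).

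The spike at the centromere was also compared. The median central ratio was 1.12 and 0.955 in the double mutant in the HU block, against 0.866 and 0.761 in the WT. At 20 minutes it was 1.30 and 1.42 in the double mutant and 1.39 and 1.51 in the WT, and at 40 minutes 1.39 and 1.44 in the double mutant and 1.72 and 1.70 in the WT. The double mutant was higher in both pools of the block and lower in the 4 pools after release, so that the mean difference over the 6 pools was -0.05 (exact two-sided sign flips, p = 0.63, smallest possible 0.0313). That mean joins differences of opposite sign, so the p-value addresses neither the block nor the release. The time points of 1 replicate are also not shown to be independent. In the mean profile the bin at the centromere held 56 RPM in the double mutant and 94.9 RPM in the WT at 20 minutes. The bins 600 bp to either side held 32.3 and 38.5 RPM in the double mutant and 58.9 and 62 RPM in the WT. Signal around the spike was thus lower in the double mutant as well. At 40 minutes the bin at the centromere held 42.3 RPM in the double mutant and 43.1 RPM in the WT.

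The *pol1-1A* mutant was compared with the WT. Of the 160 centromere windows 0 were called at each of the 3 times with limma, edgeR and DESeq2 (background 0% of all windows). Without adjustment limma gave 4, 20 and 24 centromere windows, which is 2.5, 12.5 and 15% of them, against 0.758, 2.78 and 1.35% of all windows. Without *pol1-1A* replicate 1 the HU block gave 8 calls, all lower. Of the 16 centred windows 0 were called (background 0%), and 0, 3 and 4 passed without adjustment, against 0.759, 2.95 and 1.33% of all windows. Their log2 changes were -0.48 to 0.21 in the HU block, -0.33 to 0.00 at 20 minutes and -0.53 to -0.17 at 40 minutes, with standard errors of 0.14 to 0.54. At 40 minutes the fitted change was below 0 at 16 of 16. The share of reads near centromeres was 8.62 and 11.7% in *pol1-1A* in the HU block, against 10.2 and 11.1% in the WT, which overlap. At 20 minutes it was 7.6 and 8.95% in *pol1-1A* and 9.52 and 9.56% in the WT, and at 40 minutes 2.92 and 3.36% in *pol1-1A* and 3.70 and 3.67% in the WT. These last pairs do not overlap, and no test was run on them. The highest time was the HU block at 5 centromeres in *pol1-1A* (I, II, IX, XIII and XVI), 20 minutes at 10 and 40 minutes at 1 (VI). This differed from the WT only at IV and XIII, where libraries of the highest time overlapped those of other times in both strains.

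The triple mutant was compared with the double mutant, which asks what *pol1-1A* adds. Of the 160 windows 0 were called at each time with limma, edgeR and DESeq2 (background 0.0168, 0 and 0% of all windows). Without adjustment limma gave 13, 6 and 37 centromere windows, which is 8.12, 3.75 and 23.1% of them, against 11.7, 3.44 and 6.32% of all windows. With only those 2 groups in the fit 13 were called at 20 minutes, 5 higher and 8 lower, and after quantile normalization 5 at 40 minutes, 4 higher and 1 lower. Of the 16 centred windows 0 were called (background 0%), and 1, 1 and 6 passed without adjustment, against 11.7, 3.44 and 6.48% of all windows. Their log2 changes ran from -0.78 (VII) to 0.39 (I) in the HU block, from -0.72 (VII) to 0.42 (I) at 20 minutes and from -1.09 (XIV) to 0.48 (X) at 40 minutes. At chromosome XIV the triple mutant held 63.8 and 38.4 RPM at 40 minutes and the double mutant 135 and 84.1 RPM (limma adjusted p = 0.496). At chromosome I it held 1262 and 1268 RPM in the HU block, against 847 and 1103 RPM in the double mutant (limma adjusted p = 0.352). The libraries do not overlap at either site, and neither passed.

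The triple mutant had its highest centred window at 40 minutes at 9 centromeres and at 20 minutes at 1 (XII), against 6 and 4 in the double mutant. In the triple mutant both libraries of that time exceeded all libraries of the other times at 6 of the 9, and not at XII. In the double mutant they did so at 6 of 6 and 3 of 4. Its share of reads near centromeres was 8.70 and 8.9% in the HU block, 6.58 and 6.55% at 20 minutes and 4.58 and 4.47% at 40 minutes, above the 7.84 and 8.4%, 5.87 and 6.09% and 3.88 and 4.12% of the double mutant each time, with no test run. Its median central ratio was 1.03 and 0.956 in the block, 1.17 and 1.31 at 20 minutes and 1.54 and 1.40 at 40 minutes, where the double mutant had 1.12 and 0.955, 1.30 and 1.42 and 1.39 and 1.44.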

How the data were processed

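TrAEL-seq libraries of *Saccharomyces cerevisiae* were analysed from 1 deposited table, 30 libraries in 13 groups. Per the labels and the study's methods the authors trimmed reads (Trim Galore 0.6.5), aligned them with Bowtie2 2.4.1 to build R64, removed duplicates and summed both strands in running windows. The deposited signal is in RPM, reads scaled to the mapped reads of each library. Every value was a whole multiple of 1 read (100% of values within 0.01 of a read, largest departure 0.000634), so reads and 200 bp bins were recovered. 0 columns belonged to no sample.

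The members and lists were chosen with earlier results of these data known. Non-overlapping windows (5935) was tested with limma 3.58.1 (R 4.3.3) on log2(RPM + 1), 24 libraries in 1 fit, with the asynchronous libraries, averaged per preparation, added for their comparison only. The 12 comparisons were adjusted over all windows at 0.05. Windows counted from the centromere and the spacing of maxima around origins were added after the data had been seen. Peaks were found with scipy 1.17.1 after smoothing over 15 windows. Genes come from the RefSeq table of R64. Alternatives were other scalings, pseudocounts of 0.1 and 10, a minimum of 10 RPM, another tiling, edgeR 4.0.16 and DESeq2 1.42.0 on recovered reads, a replicate block and each replicate left out.

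Libraries of 1 pool were joined before library amplification per the labels. Their deviations from group means correlated at 0.0449 to 0.794 over 18 pairs of strains, 17 of them above 0.1. In simulated reads for the double mutant against the WT in the HU block, 80% of 50 windows changed 2-fold and 30% of 50 changed 1.5-fold were recovered over 5935 windows. There were 10 false calls. Only windows with a mean of at least 10 RPM were changed, and reads were drawn independently at a fixed dispersion. The correlation within pools was thus absent, and the recovery in the real libraries may differ. In each comparison with calls, the called centromere window with the largest change in each direction is named. No genome sequence was at hand, so centromere DNA is not shown. Repeats (rDNA, Ty elements, subtelomeres) were filtered by the authors, who used SeqMonk.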

Additional observations from a re-analysis of the deposited data

Results flagged for a closer look

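The change of the centred window over time differed between the double mutant and the WT, by the interaction term of the limma fit, at the following centromeres. From the HU block to 20 minutes the difference (double mutant minus WT, log2) was -1.41 at chromosome III, -0.93 at IV, -0.94 at XI and -1.71 at XIV. From 20 to 40 minutes it was 0.77 at chromosome I, 1.76 at III, 2.11 at V, 2.52 at VII, 0.75 at VIII, 1.31 at X, 2.16 at XI, 1.76 at XII, 1.37 at XIII, 1.69 at XIV, 1.34 at XV and 0.78 at XVI. Adjusted p-values (limma, Benjamini-Hochberg) ran from 0.000133 to 0.0363 in the first step and from 8.34e-07 to 0.0454 in the second. Both steps use the 20 minute libraries, with opposite sign, so a deviation there enters both. No asynchronous library stood apart in the 18 measures tested for this, which were the centred window of each centromere, the share near centromeres and the median central ratio. That test looks for a single library apart from the rest. It does not address a difference between the 2 preparations, whose mean shares near centromeres were 2.83 and 3.96%.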

How the results depend on the processing

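With 2 replicates per group and 2 kb windows, forks are resolved only to the window, p-values measure the spread of these libraries, and the exact tests of 2 against 2 could not pass 0.05. Over all 20 results, 17 of 242 alternative values moved a count by more than 1.5 times and in 3 the balance of higher against lower calls turned. For the double mutant against the WT, 61 windows higher and 16 lower at 40 minutes became 5 and 17 with DESeq2, 8 regions higher and 3 lower became 1 and 2 with DESeq2, and 13 windows higher and 48 lower in the HU block became 3 and 2 with edgeR. For the double mutant against the WT in the HU block (61 windows), edgeR called 5 and DESeq2 6, and 10 regions became 4 after quantile normalization, 2 with edgeR, 5 with DESeq2 and 6 with regions of 5 kb on each side. At 40 minutes 77 windows became 41 with edgeR and 22 with DESeq2, and 11 regions 3 with DESeq2. The triple against the double mutant gave 13 windows at 20 minutes with only the 2 groups in the fit and 5 at 40 minutes after quantile normalization, against 0. Leaving out single replicates gave 31 to 52 windows in the HU block and 36 to 68 at 40 minutes for the double mutant, and 0 to 8 for *pol1-1A* in the HU block. The cause of these moves was not tested. The share ratios and the central ratio of HU block against asynchronous cells stayed within 1.5 times. The central ratio difference of the double mutant and WT was -0.09 with flanks of 2 to 5 kb, against -0.05. The summed calls of the WT comparisons and of the double mutant at 20 minutes stayed within 1.5 times, but not each direction alone. HU block against asynchronous cells had 55 higher and 24 lower windows after quantile normalization, against 102 and 1, 40 against 20 minutes had 18 higher, against 4, and the double mutant at 20 minutes had 0 higher with edgeR and DESeq2, against 16. The median centromere change of *pol1-1A* in the HU block (-0.11) was 0.42 with edgeR and 0.40 with DESeq2, and that of the triple against the double mutant (-0.02 and -0.01 in the HU block and at 20 minutes) was 0.69 and 0.55 with edgeR. With the pool, or for times the replicate number, as a replicate block, the counts for the double mutant were 78, 111 and 102 windows and 11, 14 and 12 regions. In the WT they were 112, 139 and 128, and 0 for *pol1-1A* and the triple mutant, so pairing moved no count by more than 1.5 times. DESeq2 scaling moved the median of all windows at 40 minutes to 0.05, against 0.25.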
